A study of Rattus norvegicus with 6 samples.

Results

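The genes described here were the 41 genes that the deposited expression table assigns to the KEGG proteasome pathway, after the interferon-inducible Psmb8, Psmb9, Psmb10, Psme1 and Psme2 were left out of the 46 genes of that pathway. The table lists 22250 rat genes in all. By their known roles, 8 of the 41 encode alpha ring subunits, 8 beta ring subunits, 6 the ATPases of the base, 4 the other subunits of the base, 9 subunits of the lid and 3 activators or an inhibitor, and 2 encode assembly factors. The remaining gene, Ifng, encodes interferon gamma, a cytokine that is drawn on the pathway map and is not a proteasome subunit. The proteasome is the protease that degrades proteins tagged with ubiquitin. Its core particle is a barrel in which alpha rings form the gate and beta rings hold the proteolytic sites, and its regulatory particle binds the tagged protein, unfolds it with a ring of ATPases and removes the ubiquitin in the lid. In cardiac muscle the proteasome takes part in the turnover of sarcomere and mitochondrial proteins, and its subunit genes are known as a family whose transcription is raised together, chiefly by the transcription factor encoded by Nfe2l1, when proteasome activity is short.

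RNA-Seq of polyadenylated RNA was performed on left ventricular myocardium of wild-type Sprague-Dawley donor rats. The young group held 3 hearts from donors of 10 weeks, titled with the numbers 3, 13 and 15, and the aged group held 3 hearts from donors of 1 year, titled with the numbers 3, 4 and 7. The numbers name hearts within a group only. All 6 donor hearts had been arrested with a cardioplegic solution, kept in cold storage and transplanted heterotopically into young rats, and tissue was taken on postoperative day 1. Both groups therefore carried the surgery, the cold ischemia and cells of the recipient, and the comparison is of donor age within transplanted hearts of male rats. The labels do not say whether RNA of a heart was pooled or split, so p-values measure the spread between these 6 libraries.

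The reads counted on genes numbered 21457509 to 24560869 per heart. The 11 cardiomyocyte markers, all of them read, summed to between 12543 and 99217 CPM (a gene's reads relative to the size of its library, with libraries scaled to each other by edgeR's TMM method) in young donor hearts and to between 588.5 and 8345 CPM in aged donor hearts, and 5 of the 11 were past the study's limits and lower. The log2 fold change (aged against young, with 0 an equal level) was negative for 10 of the 11 and positive for 1, Nppa, at 1.95. Myh7 was close to equal, at -0.25, and the groups overlapped for both Nppa and Myh7. The 10 neutrophil markers summed to 17.3 to 162.6 CPM in young and 401.7 to 1516 CPM in aged donor hearts, with 8 of 10 past the limits and higher. Macrophage markers summed to 335 to 2443 CPM in young and 3824 to 7402 CPM in aged donor hearts (4 of 10 higher), T cell markers to 25.9 to 77.2 and 91.7 to 138.5 CPM (1 of 5 higher), endothelial markers to 825.6 to 1292 and 758.5 to 1100 CPM (0 of 5 past the limits) and fibroblast markers to 2519 to 3819 and 938 to 2140 CPM (1 of 5 lower). Of all genes tested, 13.2% were past these limits, which the next paragraph defines, and higher, and 19.0% were lower. A count of 1 in 5 is near these shares. Most of the summed CPM of the T cell markers came from Cd8a and Cd4. The T cell markers tested did not move together, with log2 fold changes of 2.50 for Cd2, 2.08 for Cd8a, 0.53 for Cd3e, 0.24 for Cd4 and -0.37 for Cd3g. No listed marker in the table was at 0 in every heart, and the part of these cells in the results was not tested. Young animal 15 stood apart from the other young donor hearts, with cardiomyocyte markers at 12543 CPM against 89784 and 99217. Counts past the limits that change when this heart is left out are also given without it. In that fit 6 of 11 cardiomyocyte markers were past the limits and lower. Higher were 10 of 10 neutrophil, 10 of 10 macrophage and 2 of 5 T cell markers. Of 5 endothelial markers 1, Kdr, was lower, and of 5 fibroblast markers 1, Pdgfra, was higher and 0 were lower. Of all genes 26.9% were then higher and 24.2% lower. Aged animal 3 stood apart from the other aged donor hearts, with cardiomyocyte markers at 588.5 CPM against 8345 and 7340 in aged animals 4 and 7. In such bulk tissue, fewer cells of a type and less RNA per cell cannot be told apart.

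Most proteasome subunit mRNAs were at levels within 1.5-fold of each other in young and aged donor hearts. None of the 38 genes with enough reads to be tested was past the study's limits, which ask for an unadjusted p-value under 0.05 (edgeR's quasi-likelihood test) together with a fold change that exceeds 1.5 or is smaller than 0.67, while 32.2% of the 13784 genes tested across the transcriptome did so, 13.2% with higher and 19.0% with lower levels in the aged group. At the unadjusted p-value alone, without the fold limit, the count of proteasome genes was also 0, where 34.3% of all genes qualified. After Benjamini-Hochberg adjustment 0 genes of the whole table passed 0.05, and the proteasome gene closest to it was Psme4 at 0.152 (edgeR). The limma-voom test called 0 proteasome genes as well, beside 16.1% of all genes higher and 17.1% lower, and DESeq2's Wald test called 0 higher, beside 15.6% of all genes, and 1 lower, beside 21.2%. This gene was Psme4, at a log2 value of -0.76 and an adjusted p of 0.0925 (DESeq2). By DESeq2 it was also the 1 proteasome gene with an unadjusted p-value under 0.05, beside 39.9% of all genes, and 0 had an adjusted p-value under 0.05, beside 26.1%.

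The fold changes of the subunits were also narrowly spread. On the log2 scale, where 0 is an equal level in both groups, the 38 genes had a median of 0.15 and a standard deviation of 0.28 among themselves, against a median of 0.016 and a standard deviation of 1.24 over all genes tested. The lowest value, -0.75, was that of the activator Psme4, and the highest was 0.72 for LOC100911238, a proteasome maturation protein-like gene read only 1 to 25 times per heart, whose value lay between 0.27 and 2.33 when 1 heart was left out. Apart from these, the genes ran from -0.35 for Psmb5 to 0.47 for Psma5. In all, 36 of the 38 lay within 1.5-fold of equality, which is 94.7% of them, against 50.4% of all genes tested. This count holds for TMM scaling. With library totals in place of TMM fewer of the 38 lay within 1.5-fold. Psma5, for example, was then at 0.86 and Psmd14 at 0.80, while Psme4 came within it, at -0.23. A missed threshold does not show equal levels, so the intervals matter. The 95% interval of the fold change lay wholly inside the study's limits for 14 of the 38 genes, which is 36.8%, and for 7.67% of all genes tested, and in the other proteasome genes the interval reached past a limit. Each tested gene other than LOC100911238 had at least 398 reads in every heart, and more reads give a narrower interval.

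**Figure D1:**
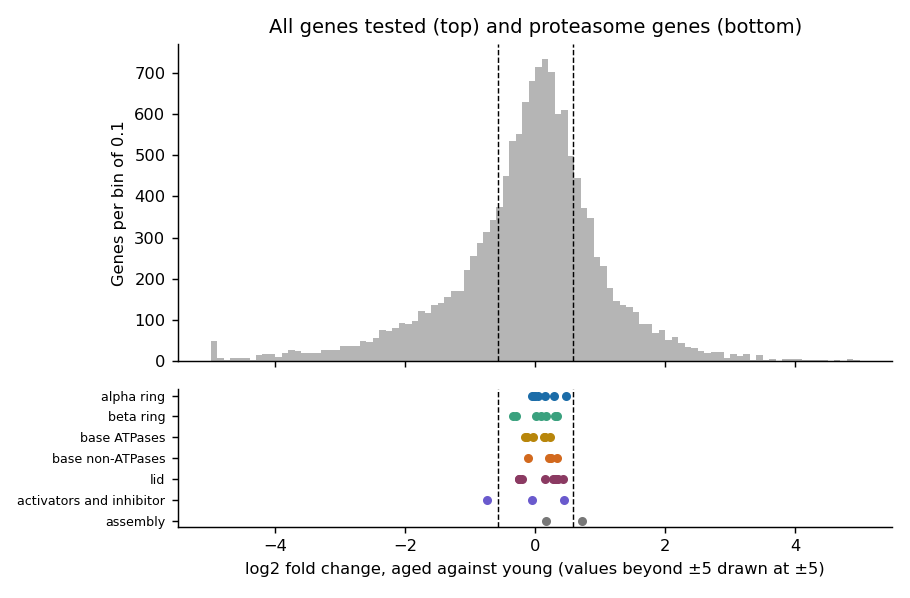
Histogram of log2 fold changes (x axis, aged against young donor hearts) of the 13784 genes tested, as genes per bin (top), above the values of the 38 proteasome genes tested, one point a gene, by subcomplex (bottom). Dashed lines mark fold changes of 0.67 and 1.5, and 36 of the 38 points lie between them, with Psme4 to the left at -0.75 and LOC100911238 to the right at 0.72.

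How much of the RNA went to proteasome genes depended on how libraries were scaled. As a share of all counted reads, the 41 genes took 0.320% in young animal 3, 0.314% in young animal 13 and 0.482% in young animal 15. In aged animals 3, 4 and 7 they took 0.517%, 0.540% and 0.528%. The groups did not overlap on this scale, with young animal 15 close to the aged donor hearts. Transcripts of the mitochondrial genome took 11.9% to 21.7% of reads in young and 6.57% to 10.3% in aged donor hearts. Of the reads outside that genome the proteasome share was 0.409%, 0.400% and 0.547% in young animals 3, 13 and 15 and 0.553%, 0.586% and 0.589% in aged animals 3, 4 and 7. With TMM scaling the summed level was 4160, 4280 and 4436 CPM in the young donor hearts in the same order, and 4169, 4772 and 4556 CPM in the aged donor hearts, so that the groups overlapped. With library totals in place of TMM, the median log2 fold change of all genes moved from 0.016 to 0.46 and that of the proteasome genes from 0.15 to 0.57, so that relative to all genes the proteasome median was 0.13 higher with TMM and 0.11 higher with totals. On totals 5 of the 38 genes, Adrm1, Psmb3, Psmb4, Psmd11 and Psme3, were past the limits and higher, and 0 were lower, beside 22.8% of all genes higher and 10.5% lower, and the same number, 5, had an unadjusted p-value under 0.05 (edgeR), beside 33.7% of all genes. Over all genes the calls then split into 3147 higher and 1441 lower, in place of 1815 and 2621 with TMM. The values below are TMM-scaled unless stated.

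**Figure D2:**
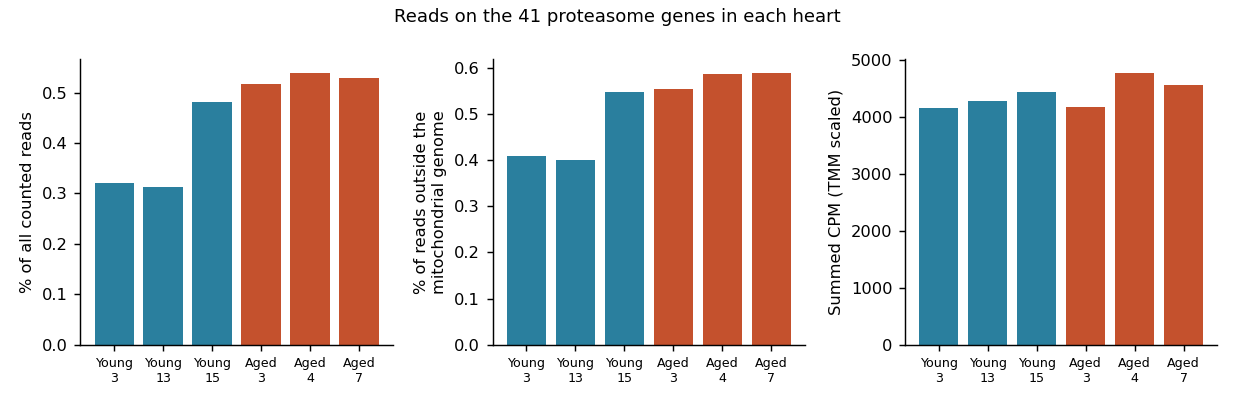
Bars give, for each of the 6 hearts (x axis), the reads on the 41 proteasome genes as a percentage of all counted reads (left), as a percentage of reads outside the mitochondrial genome (middle) and as summed TMM-scaled CPM (right), with young donor hearts in blue and aged in red. Young animals 3 and 13 are lowest in the left and middle panels, at 0.320% and 0.314% of all reads on the left, whereas on the right aged animal 3, at 4169 CPM, lies among the young donor hearts.

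Which subunits were called also depended on young animal 15. Without it, 5 proteasome genes were past the limits and higher (Psma5, Psmd14, Psmd8, Psme3 and LOC100911238) and 1, Psme4, was lower, and 13 of the 38 had an unadjusted p-value under 0.05. Across all genes the same fit put 26.9% past the limits and higher and 24.2% lower, and 56.3% had an unadjusted p-value under 0.05. The adjusted p-value was under 0.05 for 6 proteasome genes (Psma5, Psmd14, Psmd8, Psmd13, Psme3 and Psme4) and for 48.3% of all genes. The median of the proteasome genes was then 0.27, with that of all genes at 0.068. In each of the other 5 fits that left out 1 heart, 0 proteasome genes were past the limits, and these fits also put fewer of all genes past them, 17.3% without young animal 3, 17.7% without young animal 13, and 22.2%, 25.3% and 22.5% without aged animals 3, 4 and 7.

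**Figure D3:**
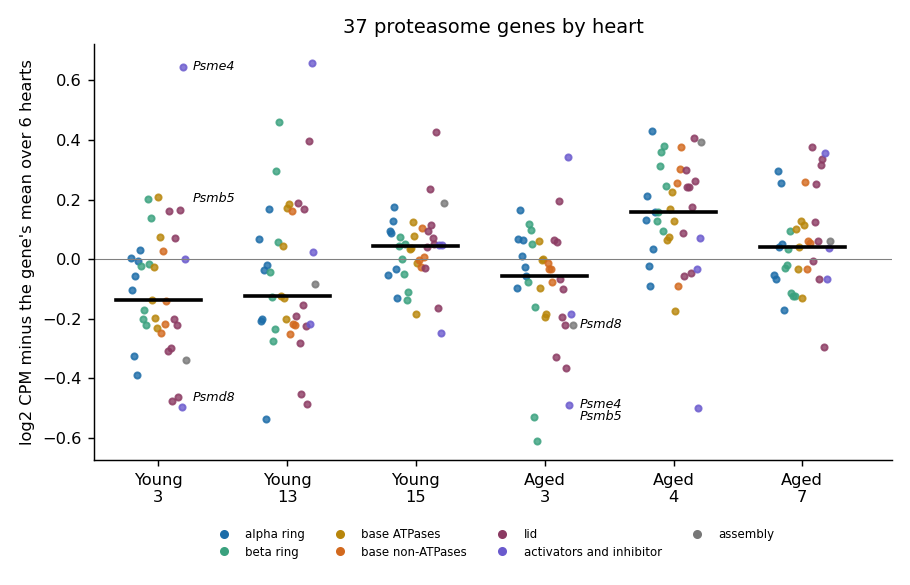
Each point is 1 of 37 proteasome genes (LOC100911238 left out for its few reads) in 1 heart, as its log2 CPM minus its own mean over the 6 hearts (y axis), coloured by subcomplex, with black bars at the median of the 37. The medians lie between -0.14 in young animal 3 and 0.16 in aged animal 4, and Psme4 is the highest point in young animals 3 and 13 and among the lowest in aged animals 3 and 4.

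For the genes at the ends of this range, and for the catalytic Psmb5, the 250 bases before the transcription start are given here, so that the values can be read beside the sequence. They are RefSeq promoters on build GRCr8, 5′ to 3′ on the strand of the gene, and capitals mark a match to TGACNNNGC (the core of the antioxidant response element, which the Nfe2l1 and Nfe2l2 products bind), CCAAT (the box bound by NF-Y) or CCGGAAG (an ETS factor site), on either strand.
Psma5 (chr2:198584255-198584504, plus strand): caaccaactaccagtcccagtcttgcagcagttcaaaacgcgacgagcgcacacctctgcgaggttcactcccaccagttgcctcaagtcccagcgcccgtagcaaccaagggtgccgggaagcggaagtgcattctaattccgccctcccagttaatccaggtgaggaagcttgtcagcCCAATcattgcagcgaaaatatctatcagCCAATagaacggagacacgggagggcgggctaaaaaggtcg
Psmb5 (chr15:32047380-32047629, minus strand): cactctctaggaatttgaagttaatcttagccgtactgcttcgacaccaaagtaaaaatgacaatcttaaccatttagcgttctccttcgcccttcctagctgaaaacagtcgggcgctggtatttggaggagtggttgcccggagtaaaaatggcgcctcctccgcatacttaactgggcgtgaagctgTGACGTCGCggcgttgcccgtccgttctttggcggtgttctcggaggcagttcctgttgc
Psme4 (chr14:108706393-108706642, plus strand): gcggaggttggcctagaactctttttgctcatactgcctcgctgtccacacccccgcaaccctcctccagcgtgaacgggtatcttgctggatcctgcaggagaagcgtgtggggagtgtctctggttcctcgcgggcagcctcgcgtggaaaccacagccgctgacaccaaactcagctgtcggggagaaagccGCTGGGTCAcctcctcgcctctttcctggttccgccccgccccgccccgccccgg
Psma5, with the highest log2 fold change of the well-read genes, had 2 matches to CCAAT and none to the other motifs, while Psmb5 and Psme4, the lowest genes, each had 1 match to TGACNNNGC and none to the others. Promoters matched by gene identifier were used for 35 of the 41 genes, Ifng among them. LOC100911238 was left out because it carries the gene identifier of Pomp. Of these 35, 8 held TGACNNNGC (22.9%), 18 held CCAAT (51.4%) and 12 held CCGGAAG (34.3%). Besides Psmb5 and Psme4, the genes with TGACNNNGC were Adrm1 (log2 fold change 0.34), Psma3l (0.29), Psmb2 (0.17), Psmd9 (0.16), Psmb6 (0.085) and Psmd1 (-0.11). CCAAT too was held by genes with values of either sign, Psmb7 at -0.30 among them. The motifs were not tested against the fold changes. Of all 33469 RefSeq promoters in the same window, 10.1%, 34.0% and 7.27% held them, and of the 21842 promoters of protein-coding genes 10.5%, 35.0% and 9.01%. None of the motifs contains another, although matches can overlap at their ends, and a match is a description of letters, not of binding.

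The alpha ring closes the core particle and opens when a regulatory particle docks. Its 7 tested genes had log2 fold changes from -0.043 for Psma7 to 0.47 for Psma5, with Psma4 at -0.027, Psma1 at -0.011, Psma6 at 0.041, Psma2 at 0.14 and Psma3l, the table's entry for the Psma3 subunit, at 0.29. Psma5 (ENSRNOG00000019868, chromosome 2 from 211050360 to 211073714) was at 53.1, 48.0 and 78.6 CPM in young animals 3, 13 and 15 and at 72.7, 93.8 and 83.1 CPM in aged animals 3, 4 and 7. Young animal 15 lay between aged animals 3 and 7, so the groups overlapped, and the means were 59.9 ± 16.4 and 83.2 ± 10.6 CPM (SD, n = 3 each). Its log2 fold change of 0.47 had a standard error of 0.240 and an adjusted p of 0.201 (edgeR), and was 0.76 with an adjusted p of 0.0141 (edgeR) without young animal 15. Psma7, whose product sits in the same ring, was at 149.4, 164.7 and 133.7 CPM in the young and at 140.9, 163.4 and 130.2 CPM in the aged donor hearts. The hearts of the 2 groups were interleaved for Psma7 (95% interval of the log2 fold change -0.50 to 0.42). For 5 of the 7 alpha ring genes the interval lay inside the fold limits, the exceptions being Psma5 and Psma3l. Psma8, the testis counterpart of Psma7, was read once in aged animal 3 and not in the other hearts.

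The beta ring carries the proteolytic sites, of which Psmb5 provides the chymotrypsin-like, Psmb6 the caspase-like and Psmb7 the trypsin-like activity. Its 7 tested genes ran from -0.35 for Psmb5 to 0.34 for Psmb4. Psmb4 (ENSRNOG00000020979) was at 111.2, 110.1 and 125.1 CPM in the young and 134.3, 166.4 and 138.2 CPM in the aged donor hearts, in the order given above. The groups did not overlap for Psmb4, the aged being higher, and its log2 fold change of 0.34 had a standard error of 0.182 and an adjusted p of 0.216 (edgeR). Psmb5 (ENSRNOG00000013386, chromosome 15 from 33259043 to 33263659) was at 25.05, 26.7 and 22.5 CPM in the young and 15.0, 23.2 and 20.1 CPM in the aged donor hearts. Aged animal 4 lay within the range of the young donor hearts for Psmb5, and the difference was -0.35 on the log2 scale, with a standard error of 0.219 (adjusted p = 0.279, edgeR). With library totals the value of Psmb5 was 0.11, so its sign depends on the scaling. Psmb7 was at 39.0, 48.8 and 32.8 CPM in the young and 23.2, 42.0 and 32.5 CPM in the aged donor hearts (log2 fold change -0.30, and 0.17 with library totals). Psmb6 was at 76.0, 80.1 and 69.9 CPM in the young and 68.9, 100.2 and 70.7 CPM in the aged donor hearts (log2 fold change 0.085). The groups overlapped for both Psmb6 and Psmb7. Among the non-catalytic members, Psmb1 was at 0.018, Psmb2 at 0.17 and Psmb3 at 0.30 on the log2 scale, and in Psmb3 all aged donor hearts were again above the young. Psmb11, the catalytic subunit of the thymus, was read once in young animal 15 and not in the other hearts.

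The base of the regulatory particle unfolds substrates with 6 ATPases and captures them with ubiquitin receptors. The ATPase genes had the smallest spread of any subcomplex with at least 4 tested genes, with a standard deviation of 0.16 and values from -0.16 for Psmc6 to 0.23 for Psmc4. Psmc6 was at 102.9, 111.1 and 96.9 CPM in the young and 86.1, 86.7 and 105.9 CPM in the aged donor hearts. Psmc4 was at 95.2, 97.2 and 117.9 CPM in the young and 111.9, 130.5 and 122.2 CPM in the aged donor hearts. The groups overlapped for both genes. Psmc5 was at -0.14, Psmc2 at -0.036, Psmc3 at 0.13 and Psmc1 at 0.15 on the log2 scale. Psmc1 was at 148.2, 149.8 and 166.9 CPM in the young and 170.3, 170.6 and 174.9 CPM in the aged donor hearts, so that its groups did not overlap despite a fold change of only 1.11. Among the other base genes, Adrm1, which encodes a ubiquitin receptor, had the highest value, 0.34 (standard error 0.182, adjusted p = 0.221, edgeR), at 98.4, 98.2 and 116.6 CPM in the young and 116.0, 139.8 and 140.0 CPM in the aged donor hearts. For Adrm1 young animal 15 was just above aged animal 3, and the other hearts were separated by group. Psmd4, which also encodes a ubiquitin receptor, was at 0.25 and the scaffold gene Psmd2 at 0.22. Psmd1, the scaffold partner of Psmd2, was at 233.0, 256.0 and 224.4 CPM in the young and 223.4, 214.8 and 223.5 CPM in the aged donor hearts. All aged donor hearts were below all young donor hearts for Psmd1, by a log2 fold change of -0.11.

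The lid removes ubiquitin chains, through the deubiquitinase encoded by Psmd14, before the substrate enters the core. Its 9 genes had values from -0.25 for Sem1 to 0.42 for Psmd14, with a median of 0.27. Psmd14 (ENSRNOG00000061129, chromosome 3 from 47578384 to 47673338) was at 46.2 and 46.9 CPM in young animals 3 and 13, at 75.6 CPM in young animal 15, and at 73.5, 75.9 and 76.4 CPM in the aged donor hearts. Young animal 15 thus lay within the range of the aged donor hearts, and Psmd14 differed by 0.42 on the log2 scale with it, with a standard error of 0.236 (adjusted p = 0.233, edgeR), and by 0.73 without it (adjusted p = 0.00669, edgeR). Psmd8 was the most variable lid gene, at 84.6, 83.2 and 156.8 CPM in the young and 100.04, 154.6 and 147.2 CPM in the aged donor hearts. Its highest value was that of young animal 15, and its log2 fold change was 0.31 with that heart and 0.71 without it. Sem1, the smallest lid subunit, was at 42.0, 49.3 and 33.4 CPM in the young and 29.0, 44.9 and 30.5 CPM in the aged donor hearts, and the groups overlapped. Psmd11 was at 0.35, Psmd13 at 0.31 (0.49 without young animal 15, adjusted p = 0.0394, edgeR), Psmd7 at 0.27 and Psmd3 at 0.16, whereas Psmd6 was at -0.21 and Psmd12 at -0.25. In Psmd11 all aged donor hearts were above the young, and in Psmd6 and Psmd12 all were below. Over the 38 proteasome genes, all aged donor hearts were above all young donor hearts in 4 genes and below them in 3, where 21.0% and 20.6% of all genes tested were separated in these ways. With library totals, Sem1, Psmd6, Psmd12, Psmd1, Psmc5 and Psmc6 had positive values, so their sign depends on the scaling.

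The genes that regulate the core from outside differed more from each other, with a standard deviation of their log2 fold changes of 0.60 over 3 genes. Psme4 encodes an activator that caps the core in place of the regulatory particle, with roles in histone degradation and DNA repair. Psme4 (ENSRNOG00000060340, chromosome 14 from 115166416 to 115269056) was at 395.2 and 398.9 CPM in young animals 3 and 13, at 212.6 CPM in young animal 15, and at 180.1, 178.7 and 241.5 CPM in aged animals 3, 4 and 7. Young animal 15 lay between the aged donor hearts, and the means were 335.6 ± 106.5 CPM in young and 200.1 ± 35.8 CPM in aged donor hearts (SD, n = 3 each). Its log2 fold change of -0.75 had a standard error of 0.317 and a 95% interval from -1.51 to 0.018 (adjusted p = 0.152, edgeR), and was -0.95 without young animal 15 (adjusted p = 0.0149, edgeR) and -0.23 with library totals. Young animals 3 and 13, far above the other hearts for Psme4, were also the hearts with the highest summed cardiomyocyte markers, and the part of those cells in the result was not tested. Psme3, which encodes the nuclear activator, was at 40.4, 49.0 and 58.9 CPM in the young and 72.3, 55.8 and 73.0 CPM in the aged donor hearts. Only aged animal 4 lay below the highest young donor heart for Psme3, and the difference was 0.44 on the log2 scale, with a standard error of 0.211 (adjusted p = 0.184, edgeR). Without young animal 15 it was 0.62 (adjusted p = 0.0406, edgeR). Psmf1, which encodes an inhibitor of the core, was at 30.8, 31.3 and 31.8 CPM in the young and 27.1, 32.3 and 31.5 CPM in the aged donor hearts, with groups that overlapped and a log2 fold change of -0.046. The assembly factor Psmd9 was at 24.1, 28.8 and 34.7 CPM in the young and 26.2, 40.1 and 31.8 CPM in the aged donor hearts, with a log2 fold change of 0.16. LOC100911238 was read 3, 1 and 20 times in the young and 11, 15 and 25 times in the aged donor hearts, with a log2 fold change of 0.72 that was 2.33 without young animal 15 (adjusted p = 0.0574, edgeR), and the table's entry for Pomp, the maturation factor it resembles, 83, 65 and 112 times and 133, 141 and 120 times. Reads of such near-identical genes could have been divided between them, so both values are uncertain. Ifng was read 2, 0 and 3 times in aged animals 3, 4 and 7 and 0 times in the young donor hearts, at or under the 3 reads taken as a floor.

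**Figure D4:**
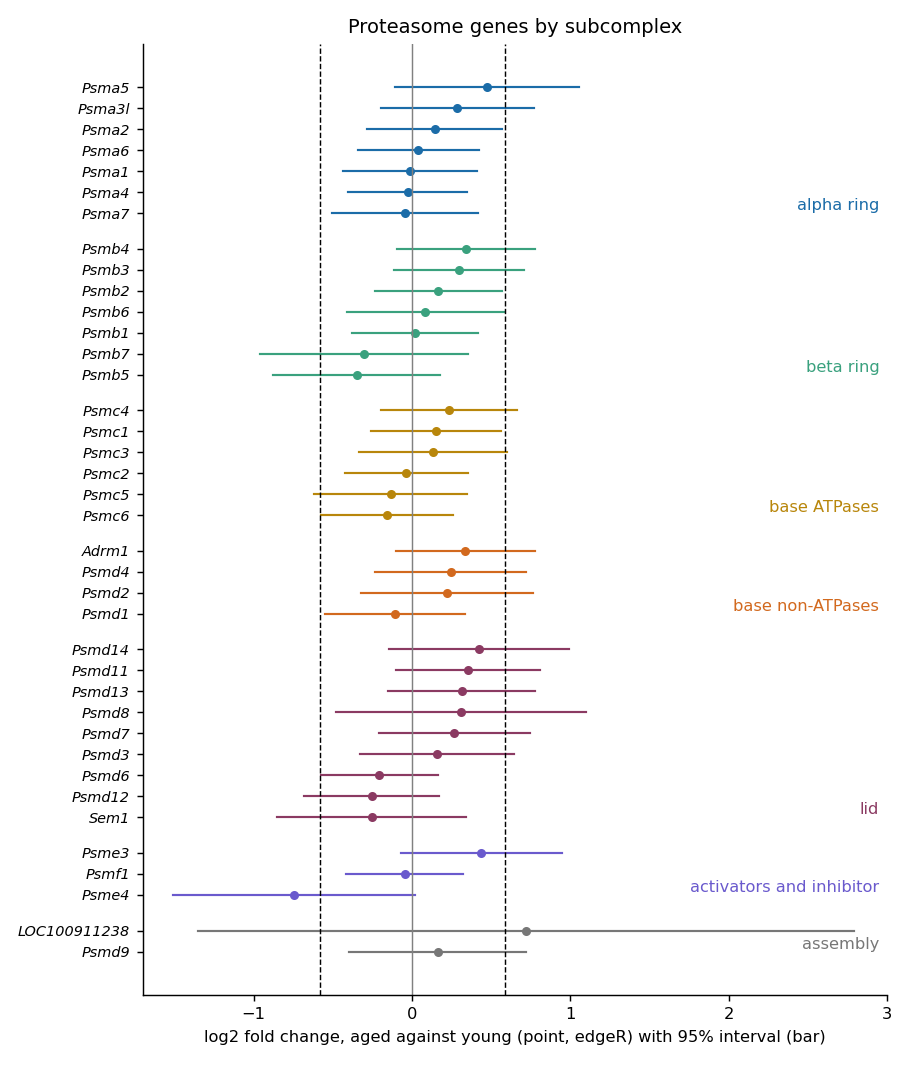
Log2 fold change of each of the 38 proteasome genes tested (points; x axis, aged against young donor hearts) with its 95% interval (bars), grouped and coloured by subcomplex, with dashed lines at fold changes of 0.67 and 1.5. The bars of 14 genes lie between the dashed lines, that of Psme4 reaches from -1.51 to 0.018, and the widest belongs to LOC100911238.

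Levels of different subunits can be compared per length, in FPKM, within a group. In young donor hearts Psma7 had the highest mean, 137.8 ± 17.4 FPKM, and in aged donor hearts Psmb4, 204.6 ± 17.4 FPKM (SD, n = 3 each). The catalytic subunits were unequal. Psmb6 was at 89.8 ± 13.99 FPKM in young and 130.5 ± 24.0 FPKM in aged donor hearts, while Psmb5 was at 24.2 ± 3.33 and 26.0 ± 4.40 FPKM and Psmb7 at 19.9 ± 1.95 and 22.4 ± 5.54 FPKM (SD, n = 3 each). In aged donor hearts Psmb5 and Psmb7 differed by less than the SD of either, and both were below Psmb6 in all 6 hearts. Psma4 and Psma3l had low FPKM for alpha ring genes, 19.5 ± 5.88 and 31.9 ± 12.1 in young donor hearts (SD, n = 3 each), and the table gives them the longest lengths of that ring, 3909 and 3559 bases. FPKM values are not TMM-scaled, and differences between groups in FPKM include the difference in mitochondrial reads given above.

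Interferon can replace the catalytic subunits with inducible ones, Psmb9 for Psmb6, Psmb10 for Psmb7 and Psmb8 for Psmb5, which makes the immunoproteasome of antigen presentation. A ratio within a heart does not depend on library scaling. The ratio of Psmb8 to Psmb5 in FPKM was 0.184, 0.140 and 0.749 in young animals 3, 13 and 15 and 1.73, 0.858 and 0.931 in aged animals 3, 4 and 7. All aged donor hearts were above all young donor hearts, by 2.03 on the log2 scale, where the exact permutation test (two-sided) gave p = 0.1, the smallest that 3 hearts against 3 allow, and 0.375 after Benjamini-Hochberg adjustment over 5 ratios. The ratio of Psmb10 to Psmb7 was 0.759, 0.570 and 2.71 in the young and 4.64, 2.42 and 2.18 in the aged donor hearts, a log2 difference of 1.46 (exact permutation test, two-sided, p = 0.3, adjusted p = 0.375). The ratio of Psmb9 to Psmb6 stayed far under 1, at 0.0567, 0.0558 and 0.152 in the young and 0.218, 0.132 and 0.119 in the aged donor hearts (log2 difference 0.93, exact permutation test, p = 0.3, adjusted p = 0.375). In each of these 3 ratios young animal 15 was the highest young donor heart. Without young animal 15 the log2 differences were 2.76, 2.13 and 1.40. That heart also had the highest summed macrophage markers of the young, at 2443 CPM against 361 and 335 CPM in young animals 3 and 13. In aged animals 3, 4 and 7 these sums were 7402, 4389 and 3824 CPM. The part of those cells in the ratios was not tested. The ratio of the inducible activator gene Psme2 to Psme3 differed less, by 0.14 (exact permutation test, p = 0.4, adjusted p = 0.4). Psme1 was read 0 to 2 times per heart, while an entry described as its pseudogene was read 27 to 77 times, so the ratio of Psme1 to Psme3 was not interpreted. As single genes none of the 4 inducible genes tested was past the limits (Psmb8 1.35, Psmb10 0.94, Psmb9 0.92 and Psme2 0.56 on the log2 scale, with adjusted p from 0.145 to 0.213, edgeR), where 13.2% of all genes were past them and higher. DESeq2 and limma-voom each called 1 of the 4, Psmb8, as higher, beside 15.6% and 16.1% of all genes. With library totals the 1 gene past the limits was Psme2, which was higher, beside 22.8% of all genes. Without young animal 15 all 4 were past the limits and higher, beside 26.9% of all genes, with Psmb8 at 2.41, Psmb10 at 1.74, Psmb9 at 1.52 and Psme2 at 0.84 on the log2 scale.

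**Figure D5:**
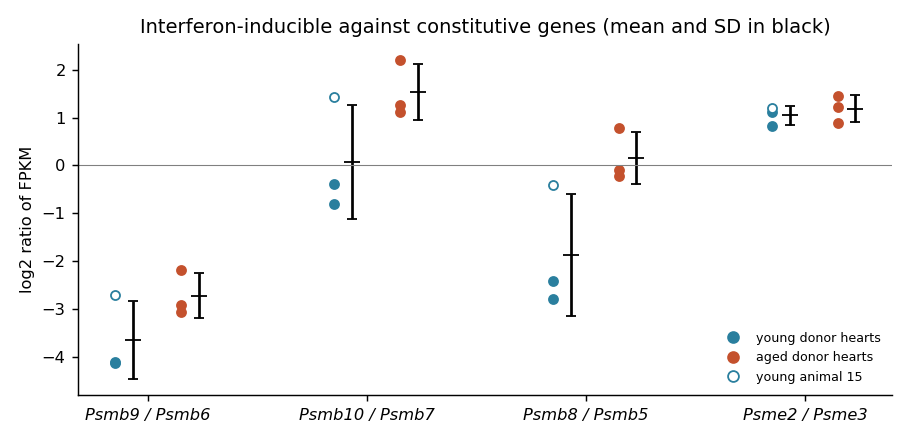
Points are the log2 ratio of FPKM (y axis) of an interferon-inducible gene to its constitutive counterpart in each heart, young in blue with young animal 15 as the open circle and aged in red, and black marks give the mean and SD of each group (n = 3 each). For Psmb8 over Psmb5 every aged donor heart lies above every young donor heart, and the group means are -1.88 and 0.15, while in the other pairs the groups overlap.

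Genes that act with the proteasome were described from lists of their known roles. Of the 9 transcription factors of proteasome genes and their processing enzymes, 1 was past the limits and higher and 1 lower, beside 13.2% and 19.0% of all genes. These were 2 subunits of NF-Y, the factor of the CCAAT box. Nfya was at 28.1, 25.6 and 40.3 CPM in the young and 57.8, 45.7 and 49.3 CPM in the aged donor hearts (log2 fold change 0.70, adjusted p = 0.101, edgeR). Nfyc was at 122.6, 114.4 and 58.9 CPM in the young and 53.6, 51.3 and 47.5 CPM in the aged donor hearts (log2 fold change -0.96, adjusted p = 0.0976, edgeR), and Nfyb was at 0.12 on the log2 scale. The groups did not overlap for Nfya or Nfyc, but neither call held in every fit without 1 heart. Nfya was no longer past the limits without young animal 3 (0.63), young animal 13 (0.57) or aged animal 3 (0.61). Nfyc was not past them without young animal 3 (-0.77), young animal 13 (-0.84) or aged animal 7 (-0.90), or with library totals (-0.43). Nfe2l1, the factor that restores proteasome transcription when the protease is inhibited, was at 280.6, 329.2 and 189.5 CPM in the young and 123.5, 182.5 and 252.2 CPM in the aged donor hearts. Its groups overlapped, and its log2 fold change was -0.52 (adjusted p = 0.304, edgeR). Nfe2l2, the oxidative stress factor that binds the same element, was at 88.4, 90.8 and 97.1 CPM in the young and 143.3, 99.7 and 138.6 CPM in the aged donor hearts. All aged donor hearts were above the young for Nfe2l2 (log2 fold change 0.47, adjusted p = 0.157, edgeR), which was past the limits with library totals (0.91) and without aged animal 4 (0.62). The lowest value of this list was that of Nfyc and the highest that of Nfya. With library totals 4 genes of the list were past the limits and higher and 0 lower, beside 22.8% and 10.5% of all genes.

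Of the 11 ubiquitin receptors, shuttles and deubiquitinases at the proteasome, 1 was past the limits and higher and 0 were lower, a share of the list no larger than that of all genes (13.2% higher and 19.0% lower). It was Zfand2a, which encodes an arsenite-inducible protein that associates with the proteasome under stress. Zfand2a was at 19.3, 15.9 and 46.0 CPM in the young and 124.3, 81.7 and 132.7 CPM in the aged donor hearts. The aged donor hearts were all above the young, of which young animal 15 was the highest, and the log2 difference of 2.06 had a standard error of 0.459 (adjusted p = 0.0916, edgeR). Zfand2a stayed past the limits in every alternative fit, with values between 1.79 (young animal 13 left out) and 2.72 (young animal 15 left out). At the other end of that list Ecpas, which encodes a proteasome adaptor, was at -0.49. The same shares of all genes stand beside the next lists. Among the assembly chaperones 8 of the 9 listed genes were tested and 0 were past the limits, with values from 0.054 for Pomp to 0.45 for Psmg2. In the list of ubiquitin, its activating enzymes and the p97 segregase 7 of 8 genes were tested and 0 were past the limits, from -0.46 for Ufd1, a segregase cofactor, to 0.42 for Uba6, an activating enzyme. Without young animal 15, when 26.9% of all genes were higher and 24.2% lower, the receptors and shuttles had 2 genes past the limits and higher and 1 lower, the assembly chaperones 3 higher and 0 lower, and the ubiquitin and segregase list 1 higher and 1 lower. With library totals, when 22.8% and 10.5% of all genes were, 2 assembly chaperones and 2 genes of the ubiquitin and segregase list were past the limits and higher.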

How the data were processed

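Polyadenylated RNA of 6 donor hearts was sequenced, and the authors deposited a single table with the raw read count and the FPKM value of each gene per library. The deposited counts are raw, and an FPKM value deposited by the authors is that count over the listed gene length and the total of the library. Of 133500 FPKM values checked 1 was off by over 0.1%, and 0 of those of the 41 proteasome genes were. The submitters' processing notes name HISAT2 2.0.5, StringTie 1.3.3b, featureCounts 1.5.0-p3, DESeq2 1.16.1, GATK 3.7 and the build Rnor_6.0, without saying which made the counts. Use of strand is not given in the sources used here. Coordinates of genes are those of the table, and coordinates of promoters are on the RefSeq build GRCr8.

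R 4.3.3 was used, with the packages edgeR (version 4.0.16), limma (version 3.58.1) and DESeq2 (version 1.42.0). Genes were kept by edgeR's filterByExpr, scaled by TMM and compared between aged and young donor hearts by the quasi-likelihood test, fitted on all genes without covariates. P-values were adjusted over all genes tested (Benjamini-Hochberg). The standard error is the log2 fold change over the square root of F, and the 95% interval uses the test's degrees of freedom. Ratios of FPKM used a pseudocount of 0.1 on the log2 scale. The steps were tested on simulated data. The 3 reads taken as a floor correspond to 0.0985 to 0.191 CPM, and this covers counting error only. The proteasome genes and the lists were chosen with earlier results of these data known. Each member was named, with values per heart for the highest and lowest fold change in each subcomplex, the catalytic subunits and the genes not tested, and others were named after their values were seen (Psmc1, Psmd8 and Nfyb). Alternatives were DESeq2's size factors, library totals, leaving out mitochondrial genes, DESeq2, limma-voom, other filters and leaving out each heart.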

Additional observations from a re-analysis of the deposited data

How the results depend on the processing

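Over the alternatives tried, the number of proteasome genes past the limits was 0 higher and 0 lower except with library totals (5 higher), with DESeq2's Wald test (1 lower) and without young animal 15 (5 higher and 1 lower). Leaving out each heart in turn thus gave 0 to 5 higher and 0 to 1 lower. With an adjusted p-value, and with no fold limit, both counts were 0. The median log2 fold change of the proteasome genes ran from 0.077 to 0.27 over the fits that left out 1 heart. It was 0.57 with library totals, where the median of all genes was 0.46 (0.016 with TMM). With library totals the sign turned for Psma1 (0.44), Psma4 (0.41), Psma7 (0.42), Psmb5 (0.11), Psmb7 (0.17), Psmc2 (0.41), Psmc5 (0.34), Psmc6 (0.30), Psmd1 (0.35), Psmd12 (0.20), Psmd6 (0.24), Sem1 (0.22), Psmf1 (0.39), Cd3g (0.084) and Ufd1 (0.043). Without a filter on low counts Psma1 was at 0.011. Leaving out 1 heart turned the sign of values close to 0, with ranges of -0.076 to 0.040 for Psma1, -0.063 to 0.073 for Psma4, -0.13 to 0.035 for Psma7, -0.038 to 0.083 for Psmb1, -0.10 to 0.19 for Psmb6, -0.077 to 0.012 for Psmc2, -0.088 to 0.036 for Psmf1, -0.0040 to 0.34 for Psmd9, -0.028 to 0.12 for Pomp and -0.18 to 0.34 for Vwf. The log2 differences of ratios kept their sign in each fit and with a pseudocount of 1. The cause of these turns was not tested. No paired analysis was possible because the groups share only 1 number in their titles, which names different hearts.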

Other observations

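The table lists copies whose descriptions resemble proteasome genes. LOC100360846, described as a beta type 6-like subunit, had 6, 13 and 17 reads in the young (animals 3, 13 and 15) and 15, 17 and 8 reads in the aged donor hearts (animals 3, 4 and 7), against 1257 to 2643 reads per heart on Psmb6. AABR07028009.1, described as a pseudogene of Psme1, was read 58, 77 and 57 times in the young and 39, 58 and 27 times in the aged donor hearts, while Psme1 itself was read 0, 0 and 1 times and 0, 2 and 0 times. How reads with more than 1 match were counted is not given in the sources used here, so the low count of Psme1 is a value of the table and not a measure of the level of its mRNA.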
